A study of Mus musculus with 4 samples.

Results

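Expression of 9 complement genes was followed across the cell classes of mouse back skin. The genes were C1qa, C1qb, C1qc, C1ra, C1s1, C4b, C3, Cfb and Serping1. They were found by symbol in the deposited gene table, where each had 1 row among 27998 genes. Droplet single-cell RNA sequencing of the 3′ ends of transcripts (Chromium v2 chemistry) had been run on sorted cells from adult CD1 mice in 4 libraries, 1 per group. In order, these were untreated control skin, imiquimod-treated control skin, untreated Ovol1 null skin and imiquimod-treated Ovol1 null skin. The labels of all 4 libraries give an age of 7 to 8 weeks. The imiquimod mice had received a single dose of 62.5 mg of cream with 5% imiquimod on the shaved back. Imiquimod, an agonist of Toll-like receptor 7, causes psoriasis-like inflammation in mouse skin, and Ovol1 encodes a zinc finger transcription repressor of epithelia. The genotype behind the word control, the Ovol1 allele, the number of mice behind each library and the gate of the cell sort are not given in the sources used here.

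Complement is a cascade of serum proteins that tags microbes and debris and draws in leukocytes. In its classical pathway, C1q binds a target and activates the attached proteases C1r and C1s, which cleave C4 and C2 into an enzyme that cleaves C3. Factor B joins cleaved C3 to form the corresponding enzyme of the alternative pathway, and C1 inhibitor blocks C1r and C1s. The liver supplies most of the circulating proteins, whereas C1q comes largely from macrophages and dendritic cells, and fibroblasts are known to make several of the other components locally.

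After filtering, 6066, 5576, 5214 and 5553 cells were kept, in the order of the groups above, and this order holds wherever 4 values are given. Their median UMI counts (unique molecular identifiers, that is, counted transcripts) were 5706.5, 4759.5, 5703 and 8394 per cell, so the Ovol1 null imiquimod library was the deepest. Its lowest cell had 3039 UMIs, against 1413 to 1456 in the other libraries. Ovol1 itself was at 9.13, 22.8, 24.2 and 45.5 CPM (UMIs per 1000000 UMIs of the cells summed). It was higher in each library labelled null than in the control library of the same treatment. Whether the 3′ tags lie outside a deleted stretch is not known, as the allele is not given, so the label could not be checked. Those libraries are called "labelled null" here. Of 22175 distinct barcode sequences among the kept cells, 234 occurred in more than 1 library. Clusters were called fibroblast-like, macrophage-like and so on from marker lists, without the 9 genes, and the short names below stand for such classes. Fibroblasts made up 3277, 2344, 1948 and 3110 cells and macrophages or monocytes 210, 82, 106 and 60 cells. The untreated fibroblasts lay mainly in clusters 0, 3, 7, 13 and 20, those of control imiquimod skin in clusters 1 and 26, and those of labelled null imiquimod skin in clusters 2 and 5. With 1 library per group no difference below has a replicate check. The intervals given are exact 95% intervals of counting error alone. A gene was called higher or lower in a class at a ratio of at least 1.5 with its interval on one side of 1 and at least 20 UMIs over both libraries, where each library had at least 50 cells of the class.

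The genes divided by cell class. C1qa, C1qb and C1qc were highest in macrophages or monocytes in all 4 libraries. C1ra, Serping1, C4b and Cfb were highest in fibroblasts in all 4 libraries, among classes with at least 50 cells. C1s1 was highest in mural cells, the smooth muscle cells and pericytes of vessels, in all 4. C3 was highest in fibroblasts except in labelled null imiquimod skin, where lymphatic endothelial cells reached 229 CPM against 223 CPM in fibroblasts, a ratio of 1.03 from 58 UMIs in the lymphatic cells.

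**Figure D1:**
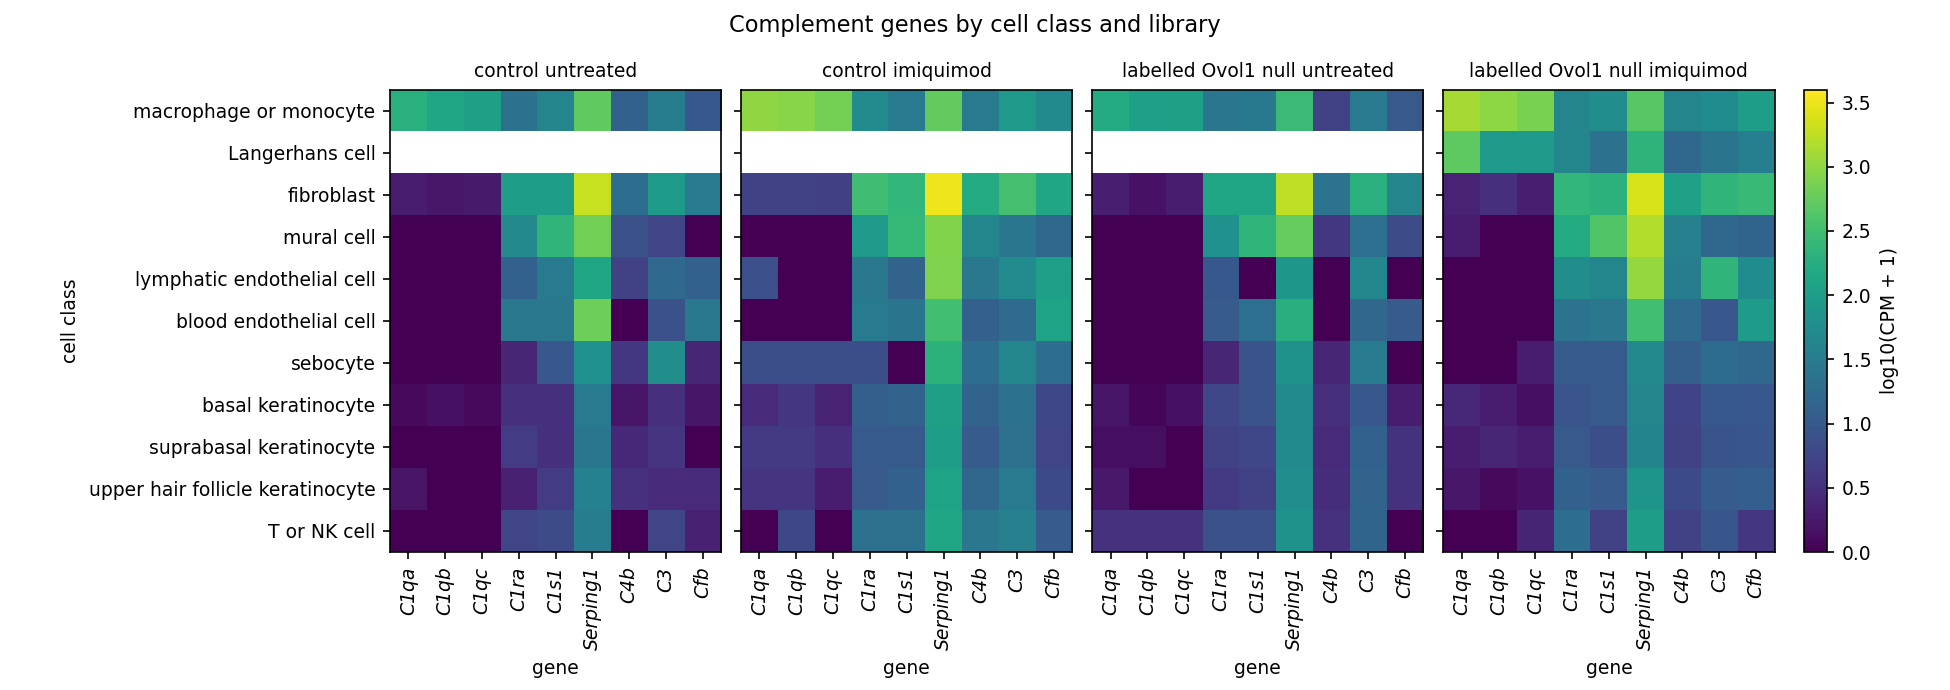
Levels of the 9 genes as log10(CPM + 1), by color, in 11 cell classes (rows; Schwann cells are not drawn), with 1 panel per library and genes in columns; white rows had fewer than 20 cells. Within a column, the C1q genes are brightest in macrophages or monocytes, and C1ra, C1s1, Serping1, C4b, C3 and Cfb are brightest in fibroblasts or mural cells, apart from C3 in lymphatic endothelial cells of the last panel.

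Genes of a shared role also lay close together in the genome (GRCm38, GENCODE M21). C1qb (chr4:136880129-136886187), C1qc (chr4:136889804-136893065) and C1qa (chr4:136895917-136898803) lay on the minus strand with 3616 and 2851 bases between neighbours. C1ra (chr6:124512405-124523443, plus strand) and C1s1 (chr6:124530345-124542359, minus strand) were 6901 bases apart. C4b (chr17:34728380-34743882) and Cfb (chr17:34856374-34862518) were 112491 bases apart on the minus strand, C3 lay on the same chromosome (chr17:57203970-57228136, minus strand), and Serping1 lay alone (chr2:84765387-84775444, minus strand).

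The 250 bases before the start of 1 gene from each pattern of expression are shown, C1qb for macrophages, C1s1 for mural cells and fibroblasts and C3 for fibroblasts, so that the sequence can be read beside the levels that follow. They come from RefSeq (GRCm38.p6), whose promoter table held 5 of the 9 genes (C1qb, C1qc, C1ra, C1s1 and C3), and run 5′ to 3′ on the minus strand, at chr4:136886201-136886450, chr6:124542360-124542609 and chr17:57228137-57228386. Capitals mark matches to the C/EBP core.
C1qb: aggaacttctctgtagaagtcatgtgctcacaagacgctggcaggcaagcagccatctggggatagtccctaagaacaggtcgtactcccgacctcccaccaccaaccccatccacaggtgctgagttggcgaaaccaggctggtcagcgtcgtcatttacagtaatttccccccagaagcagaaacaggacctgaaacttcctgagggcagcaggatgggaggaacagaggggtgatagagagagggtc
C1s1: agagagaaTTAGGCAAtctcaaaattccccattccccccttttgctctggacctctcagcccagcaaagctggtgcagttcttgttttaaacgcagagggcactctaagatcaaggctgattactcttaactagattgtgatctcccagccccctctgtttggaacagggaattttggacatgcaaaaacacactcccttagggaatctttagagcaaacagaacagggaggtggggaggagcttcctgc
C3: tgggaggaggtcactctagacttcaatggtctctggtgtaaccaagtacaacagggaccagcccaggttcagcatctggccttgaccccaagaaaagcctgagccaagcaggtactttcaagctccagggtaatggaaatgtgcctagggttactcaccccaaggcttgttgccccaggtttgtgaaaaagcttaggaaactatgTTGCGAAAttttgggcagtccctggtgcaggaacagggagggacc
Of 4 motifs searched on both strands, the C/EBP core TTGCNNAA matched in C3, 45 bases before the start, and in C1s1 on the opposite strand, 242 bases before the start. Among 32851 RefSeq promoter windows of the same length, 9.56% held that motif. The interferon-stimulated response element core, GAAA, any 2 bases and GAAA (2.98% of windows), the NF-kappaB core, GGGA, any base and TTTCC (0.356%), and the STAT core TTCNNNGAA (7.02%) had no match in the windows of the 5 genes. A match is a run of letters and not a site of binding, and no match says only that the letters are not in the window.

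C1q, the recognition part of the classical pathway, is built from the chains encoded by C1qa, C1qb and C1qc. In macrophages or monocytes C1qa was at 190, 1014, 162 and 1291 CPM, from 299, 469, 123 and 615 UMIs. C1qb was at 132, 902, 105 and 974 CPM, and C1qc at 110, 701, 111 and 760 CPM. Each chain was higher in both imiquimod libraries than in both untreated libraries. Of all genes in this class, 8.66% were called higher with imiquimod in control skin and 16.5% in labelled null skin. In control skin the imiquimod level was 5.35 times the untreated level for C1qa (4.61 to 6.2), 6.83 times for C1qb (5.77 to 8.11) and 6.35 times for C1qc (5.26 to 7.67). In labelled null skin the ratios were 7.97 (6.56 to 9.76), 9.25 (7.28 to 11.9) and 6.87 (5.41 to 8.82). Between genotypes no chain was called different in this class: under imiquimod the labelled null level of C1qa was 1.27 times the control level (1.13 to 1.44), and C1qb and C1qc were each at 1.08 times. C1qa was called higher there with each library clustered on its own (log2 ratio 0.628) or in cells with at least 3100 UMIs (0.908). The cells of all 4 libraries lay in 1 cluster, number 18. Among its leading genes only Lyz2 was of the macrophage list, beside H2-Eb1, Cd74, H2-Aa, H2-Ab1 and Cd209d. Whether the class also held dendritic cells was not tested.

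**Figure D2:**
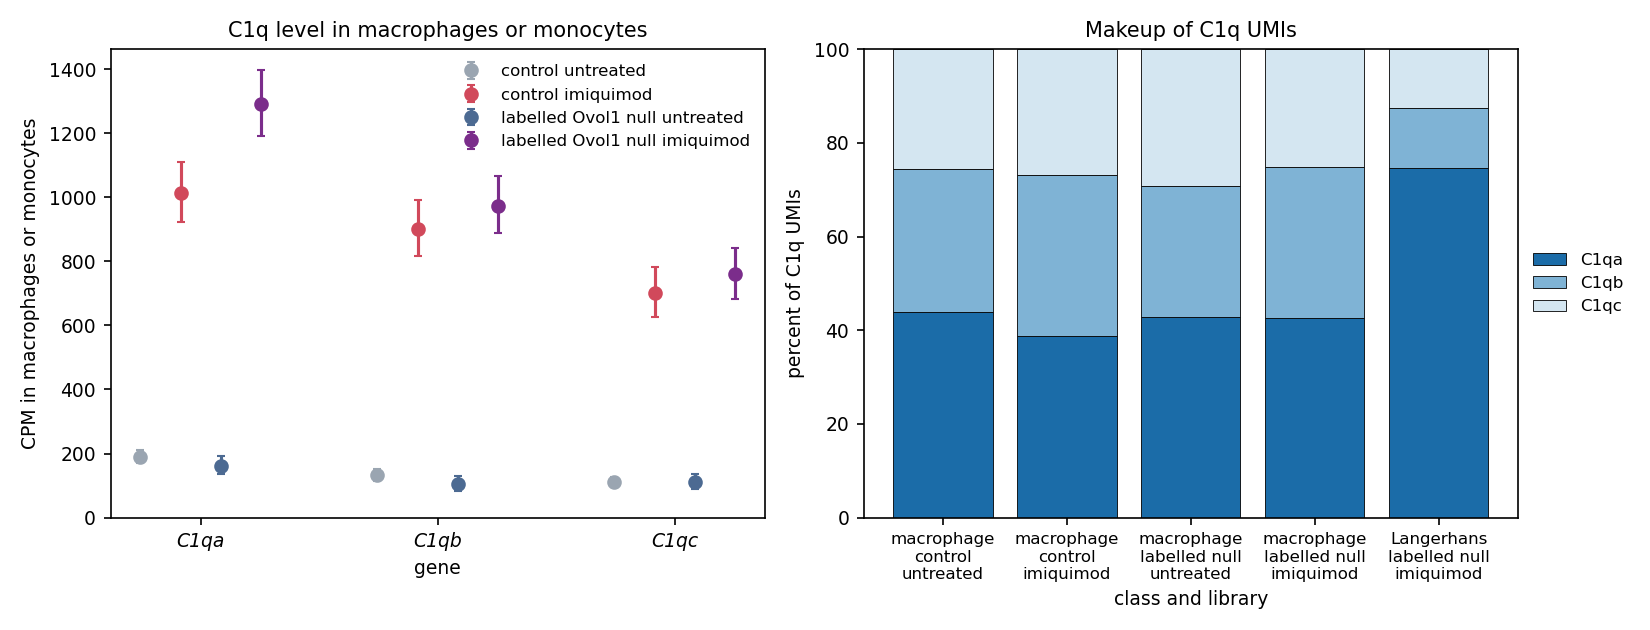
Left, level of each C1q chain in macrophages or monocytes in CPM (points, 1 per library) with exact 95% counting intervals (bars); right, percent of C1q UMIs from each chain in that class in each library and in Langerhans cells of labelled null imiquimod skin. C1qa is at 1014 and 1291 CPM in the imiquimod libraries against 190 and 162 CPM in the untreated ones, and makes up 74.6% of the C1q UMIs in the Langerhans cells.

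C1q UMIs were unevenly spread over these cells. At least 1 C1q UMI was present in 20%, 37.8%, 18.9% and 50% of macrophages or monocytes, at median depths of 6243, 4383.5, 5474 and 6529.5 UMIs per cell. After thinning of every cell to 1000 UMIs the shares were 16.2%, 30.5%, 17.0% and 43.3%, so the order of treated over untreated remained at 1 depth. Cells with a C1q UMI mostly held all 3 chains, which were found together in 34, 25, 17 and 24 cells. The 10% of cells with the most C1q held 76.7%, 52.5%, 74.9% and 41.6% of the class's C1q UMIs. T or NK cells, which should lack C1q, had a C1q UMI in 0 of 290 (with an exact interval up to 1.26%), 1.43%, 1.78% and 0.571% of cells at median depths of 2644, 2287, 2324 and 3835 UMIs. In fibroblasts the shares were 1.13%, 4.82%, 1.49% and 3.22%, and in basal keratinocytes 0.442%, 3.10%, 0.674% and 3.14%.

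The level over the class joins how many cells express C1q with how much each expresses, so the class was also divided by genes of its marker list, a choice made after the data were seen. These genes are not particular to resident macrophages. By the same rule 375 of 3277 control untreated fibroblasts were marked, and F13a1 led fibroblast cluster 13. Cells with a UMI of Mrc1, Cd163, F13a1 or Pf4 numbered 126, 56, 65 and 26, which was 60%, 68.3%, 61.3% and 43.3% of the class. Among them C1qa was at 326, 1437, 319 and 2414 CPM, C1qb at 228, 1160, 209 and 1858 CPM and C1qc at 191, 881, 217 and 1438 CPM. The imiquimod level of C1qa in these cells was 4.40 times the untreated level in control skin and 7.57 times in labelled null skin, so the difference held within the marked cells. A C1q UMI was found in 32.5%, 46.4%, 29.2% and 84.6% of the marked cells, so they still mixed cells with and without C1q. Under imiquimod the ratios of labelled null over control marked cells were 1.68 for C1qa, 1.60 for C1qb and 1.63 for C1qc. These ratios are not calls, as the 26 marked cells of labelled null imiquimod skin are fewer than the rule for a call requires. In the remaining cells C1q was seen in 1 of 84, 5 of 26, 1 of 41 and 8 of 34 cells.

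Outside macrophages the main holder of C1qa was a set of 92 Langerhans cells, the dendritic cells of the epidermis, in labelled null imiquimod skin. The other libraries held 9, 13 and 6 such cells, so no comparison between libraries was made. C1qa had 390 UMIs there (502 CPM) and was found in 59.8% of the cells (49.0% to 69.9%). C1qb, at 86.3 CPM, was found in 12% of them and C1qc, at 85.0 CPM, in 22.8%. C1qa thus took 74.6% of the C1q UMIs in these cells, against 38.8% to 43.9% in macrophages or monocytes of the 4 libraries. Only 10.9% of the Langerhans cells held all 3 chains. Of 13 macrophage markers 11 were seen in them, with a summed level of 877 CPM against 4133 CPM in macrophages or monocytes of the same library, and Cd163 and F13a1 were at 0. The cluster had 2 Langerhans and 2 dendritic cell markers among its 10 leading genes. Macrophages or monocytes held 87.7%, 82.6%, 80.9% and 57.5% of all C1qa UMIs of a library, and the Langerhans cells held 36.5% in the last.

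C1r and C1s are the serine proteases carried by C1q. In fibroblasts C1ra was at 100, 315, 129 and 244 CPM, and a UMI was found in 43.2%, 65.4%, 48.2% and 77.9% of cells. C1s1 was at 98.9, 244, 130 and 205 CPM. For both genes each imiquimod library lay above both untreated libraries. Of all genes in fibroblasts, 17.6% were called higher with imiquimod in control skin and 9.34% in labelled null skin. The imiquimod level of C1ra was 3.15 times the untreated level in control skin (2.98 to 3.33) and 1.89 times in labelled null skin (1.79 to 2), and that of C1s1 was 2.47 times (2.33 to 2.61) and 1.58 times (1.49 to 1.67). Both genes have near copies, C1rb and C1s2, which had 1284 to 4539 and 910 to 2505 UMIs per library against 1682 to 6702 for C1ra and 1787 to 5989 for C1s1, and reads shared between copies could have been assigned to either or dropped.

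Mural cells carried C1s1 at 229, 258, 223 and 417 CPM, which was 232%, 106%, 172% and 203% of the fibroblast level of the same library. Summed fibroblast markers in mural cells stood at 2.66% to 6.31% of their fibroblast level, and their part in the C1s1 values was not tested. C1s1 in mural cells was not called different with imiquimod in control skin, at a ratio of 1.12 (0.788 to 1.59), and was called higher in labelled null skin, at 1.87 (1.47 to 2.4). C1ra in mural cells was at 48.6, 84.2, 64.2 and 161 CPM.

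Serping1 encodes C1 inhibitor, the serpin that shuts down C1r and C1s. It was at 2002, 3260, 1821 and 2405 CPM in fibroblasts and was found in 96.1%, 98.9%, 96.3% and 100% of them. The imiquimod level was 1.63 times the untreated level in control skin (1.61 to 1.65), a call, and 1.32 times in labelled null skin (1.3 to 1.34), below the ratio needed. With TMM scaling, which shifted the median of all genes in labelled null fibroblasts by 0.24 on the log2 scale, the log2 ratio in labelled null skin was 0.64 and a call. In mural cells Serping1 was at 676, 837, 564 and 1543 CPM. The last value stood apart, with an imiquimod ratio of 2.74 in labelled null skin (2.36 to 3.18) and 1.24 in control skin (1.02 to 1.5). Lymphatic endothelial cells, with 28 to 60 cells a library, had 128, 799, 79.3 and 1084 CPM.

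C4b encodes complement C4, the first protein cleaved by C1s. In fibroblasts it was at 19.1, 163, 22.7 and 113 CPM, and a UMI was found in 8.3%, 32.0%, 9.34% and 35.6% of cells. Both imiquimod libraries were far above both untreated ones. In control fibroblasts its imiquimod ratio of 8.56 (7.69 to 9.55) was larger than that of the other 8 genes in this class, and in labelled null fibroblasts it was 4.97 (4.39 to 5.65). In mural cells of labelled null skin C4b had 1 UMI untreated and 38 UMIs under imiquimod, a ratio of 13 with an interval from 2.19 to 525. Schwann cells of control untreated skin, 35 in number, held 18 UMIs of C4b (140 CPM, 82.8 to 221), above the fibroblast level.

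C3 is the protein on which all complement pathways converge. Fibroblast levels were 90.9, 347, 189 and 223 CPM, and after thinning to 1000 UMIs a C3 UMI was found in 7.78%, 23.7%, 15.1% and 19.1% of cells. The control untreated library was lowest and the control imiquimod library highest, with both labelled null libraries between them. C3 was 3.82 times as high with imiquimod in control skin (3.61 to 4.03). In labelled null skin the ratio was 1.18 (1.12 to 1.24), which is not a call. Untreated labelled null fibroblasts exceeded untreated control fibroblasts in C3 by a ratio of 2.08 (1.96 to 2.21). C3 was the only 1 of the 9 genes called different between genotypes in untreated fibroblasts, where 7.24% of all genes were called higher and 2.47% lower. Within untreated fibroblasts the same direction was seen in each of the clusters 0, 3, 7, 13 and 20, at 121 against 227, 120 against 238, 91.7 against 125, 12.7 against 56.1 and 7.37 against 18.7 CPM for control against labelled null.

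Cfb encodes factor B of the alternative pathway. It was at 29.8, 136, 42.0 and 265 CPM in fibroblasts, and a UMI was found in 14.3%, 32.2%, 18.2% and 69.3% of cells. After thinning the shares were 3.23%, 9.81%, 3.34% and 21%, again highest in labelled null imiquimod skin. The imiquimod ratio was 4.57 in control skin (4.16 to 5.02) and 6.31 in labelled null skin (5.76 to 6.92). Blood endothelial cells, with 26 to 79 cells a library, held Cfb at 26.9, 122, 9.77 and 97.4 CPM.

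**Figure D3:**
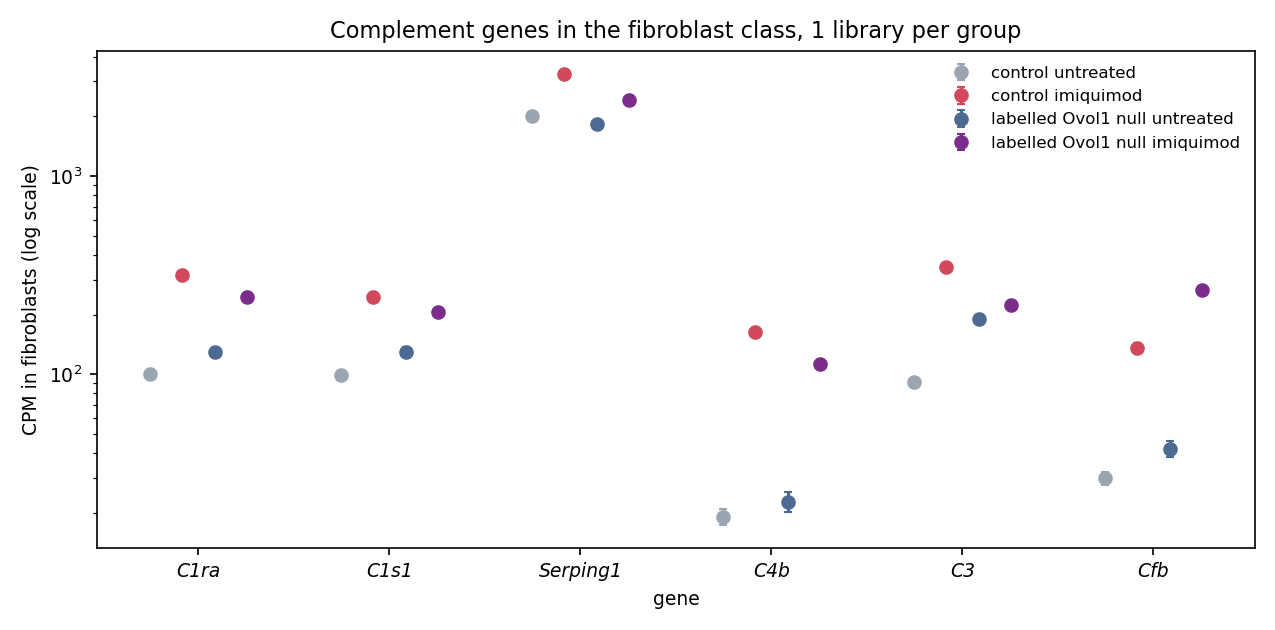
Level of the 6 genes other than C1q in fibroblasts, in CPM on a log scale (points, 1 per library), with exact 95% counting intervals (bars, mostly smaller than the points). Each imiquimod library is above both untreated libraries for every gene shown. In labelled null skin C3 and Serping1, at imiquimod ratios of 1.18 and 1.32, were not called. Of all genes in fibroblasts, 17.6% were called higher with imiquimod in control skin and 9.34% in labelled null skin. Cfb is highest in labelled null imiquimod skin, at 265 CPM, and the other 5 genes are highest in control imiquimod skin.

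Fibroblasts were the main holders of these 6 genes in the tissue as sampled. They held 91.6% to 95.3% of C1ra UMIs, 86.2% to 90.5% of C1s1, 92.7% to 95.9% of Serping1, 86.9% to 91.9% of C4b, 88.0% to 93.7% of C3 and 89.9% to 95.1% of Cfb UMIs of a library. They held 59.1%, 35.1%, 38.5% and 45.7% of all UMIs. The shares depend on the mix of cells that the sort let through.

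Fibroblast clusters differed among themselves. In control imiquimod skin, the 268 cells of cluster 26 had C1ra at 498, C1s1 at 455, C3 at 551 and C4b at 347 CPM. The 1932 cells of cluster 1 had 291, 213, 318 and 142 CPM for the same genes, so cluster 26 was higher in each. Cluster 20 of untreated skin was low in C3 (7.37 and 18.7 CPM in control and labelled null), in Cfb (0.921 and 3.40 CPM) and in Serping1 (379 and 369 CPM) but not in C1s1 (147 and 117 CPM). Cluster 13 was low in C1s1, at 31.0 and 36.2 CPM. In labelled null imiquimod skin, cluster 5 had C3 at 299 CPM against 171 CPM in cluster 2, whereas Cfb was at 290 and 250 CPM. Serping1 was among the 10 leading genes of clusters 1 and 26, although it took no part in the clustering.

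Imiquimod was compared with no treatment over all classes. In control skin, 37 of the 42 measured pairs of a gene and a class were called higher, none lower and 5 neither, against 9.46% higher and 11.7% lower among all gene and class pairs. In labelled null skin, 25 of 45 pairs were called higher and none lower, against 14% and 20.6% of all pairs. In control fibroblasts all 9 genes were called higher (17.6% of all genes were higher and 17.1% lower), with a median log2 ratio of 2.17 against 0.00 over all genes. In labelled null fibroblasts 5 of 9 were called higher (9.34% of all genes higher, 28.2% lower), with a median of 0.66 against -0.24. In macrophages or monocytes 7 of 9 were called higher and none lower in each genotype, against 8.66% of all genes higher and 8.59% lower in control and 16.5% and 10.7% in labelled null skin, with medians of 1.42 against 0.00 and 2.77 against 0.12. In mural cells none of 3 measured genes was called in control skin, against 7.45% of all genes higher and 10% lower, and 4 of 5 were called higher in labelled null skin, against 9.26%. C3 and Serping1, the genes measured in sebocytes of labelled null skin, were not called, against 14.2% of all genes higher and 5.71% lower.

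**Figure D4:**
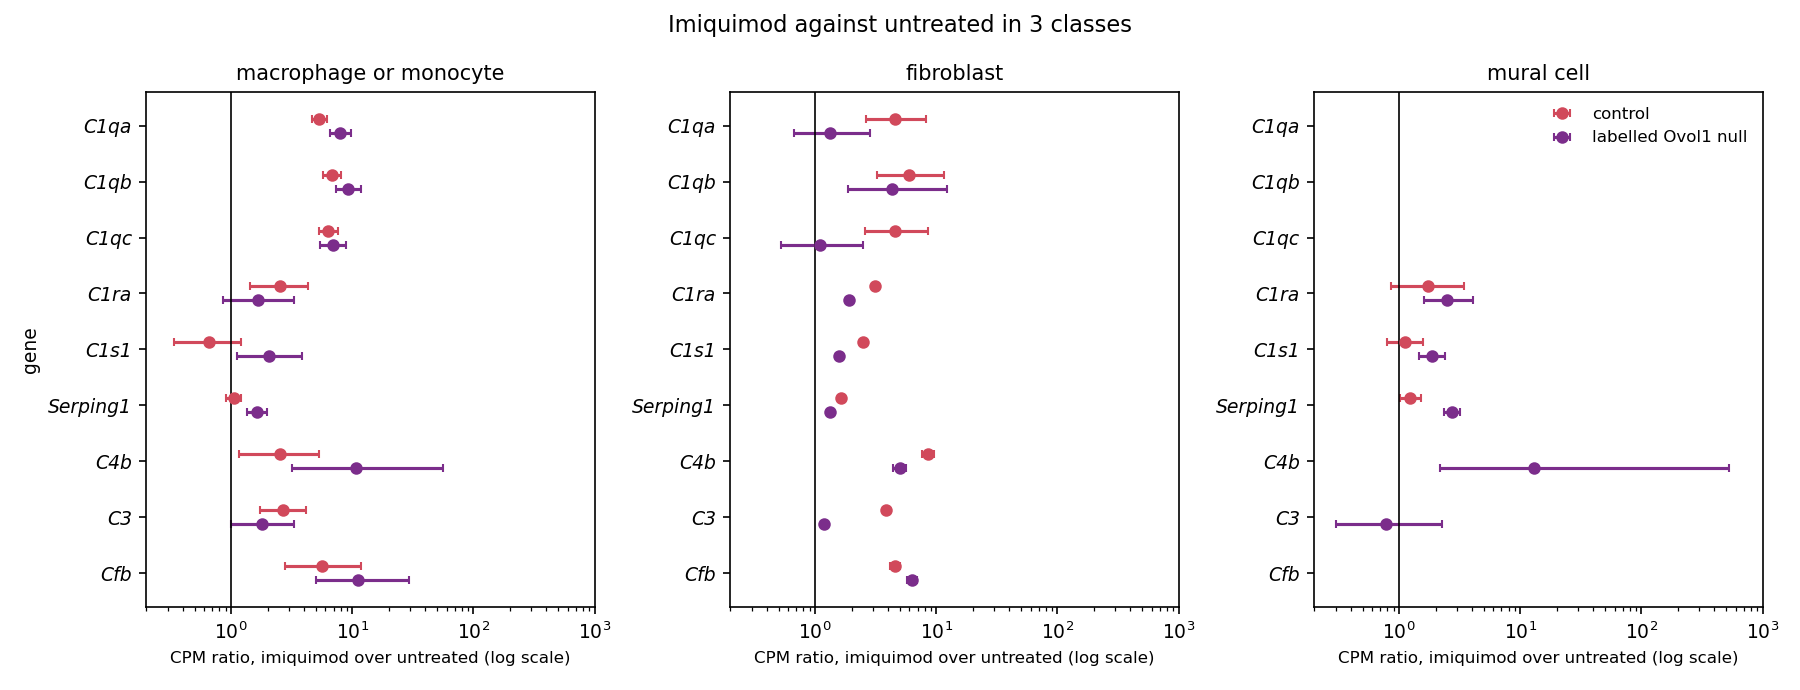
Ratio of CPM, imiquimod over untreated (log axis), for each gene in macrophages or monocytes, fibroblasts and mural cells, in control skin (red) and labelled null skin (purple), with exact 95% counting intervals (bars); pairs with under 20 UMIs are not drawn. C1q ratios are 5.35 to 9.25 in macrophages or monocytes, and C3 in fibroblasts is at 3.82 in control and 1.18 in labelled null skin.

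The genes other than C1q had wider intervals in macrophages or monocytes. C1ra was at 21.6, 54.1, 25 and 42.0 CPM and was called higher with imiquimod in control skin alone, at 2.51 times (1.43 to 4.33). C1s1 was at 42.5, 28.1, 27.6 and 56.7 CPM and was called higher in labelled null skin, at 2.05 times (1.12 to 3.81). Serping1, at 518, 545, 283 and 462 CPM, was called higher in labelled null skin, at 1.63 times (1.35 to 1.98), where its untreated level was the lowest of the 4. The calls of C1s1 and Serping1 were lost without the 1% most abundant genes in the totals and with thinning. C3 was at 32.4, 86.5, 30.3 and 54.6 CPM, called higher with imiquimod in control skin at 2.67 times (1.72 to 4.12) but not in labelled null skin at 1.80 times. Cfb was at 8.88, 49.7, 9.21 and 103 CPM, 5.60 and 11.2 times as high with imiquimod. C4b was at 12.1, 30.3, 3.95 and 42.0 CPM, and its call in control skin was lost and its direction turned with cells thinned to 1000 UMIs (log2 ratio -0.228) or each cell weighted alike (-0.149). Summed fibroblast markers in this class stood at 26.6%, 16.9%, 14.6% and 25.5% of their level in fibroblasts, and C1ra, C1s1, Serping1, C4b, C3 and Cfb at 11.5% to 63.2% of theirs. The part of fibroblast RNA in these values was not tested.

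Keratinocytes had the same genes at a small fraction of the fibroblast level. In basal keratinocytes Serping1 was at 28.0, 109, 51.6 and 42.8 CPM and C3 at 2.16, 21.8, 8.36 and 8.82 CPM. Control imiquimod skin was highest for both genes. All 20 measured pairs of a gene and a keratinocyte class (basal, suprabasal or upper hair follicle) were called higher with imiquimod in control skin, against 6.96%, 7.63% and 5.92% of all genes in the 3 classes, where 14%, 10.5% and 9.82% were lower. Among these pairs were basal C1qb, with 23 UMIs under imiquimod and 2 untreated, and suprabasal C1qa and C1qb, each with 20 and 0. Genes near 0 in untreated cells could reach the minimum of 20 UMIs only through the imiquimod library, so such pairs could hardly be called lower. In labelled null skin 9 of 19 were called higher and none lower, against 17.3%, 16.3% and 17% of all genes higher and 29%, 24.6% and 24.5% lower. In basal keratinocytes the control ratios were 3.90 for Serping1 (3.24 to 4.72) and 10.1 for C3 (5.37 to 21.4), and the labelled null ratios were 0.828 and 1.06. Basal Cfb, at 0.647, 5.03, 0.880 and 8.35 CPM, was higher with imiquimod in both genotypes, 7.77 and 9.48 times. Relative to fibroblasts of the same library, basal C3 stood at 2.37%, 6.28%, 4.43% and 3.96% and basal Serping1 at 1.40%, 3.35%, 2.84% and 1.78%, beside summed fibroblast markers at 1.41%, 2.36%, 2.12% and 1.48%. Basal C4b stood higher, at 3.39%, 7.99%, 9.70% and 3.80%, from 3, 109, 15 and 54 basal UMIs, so the untreated values rest on few counts. The marker share had the same order over the 4 libraries as the shares of Serping1 and C3, and its part in the keratinocyte values was not tested. Basal cells also lay partly in clusters of 1 library, cluster 10 of control imiquimod and cluster 12 of labelled null imiquimod skin, and suprabasal cells in clusters 19 and 24.

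**Figure D5:**
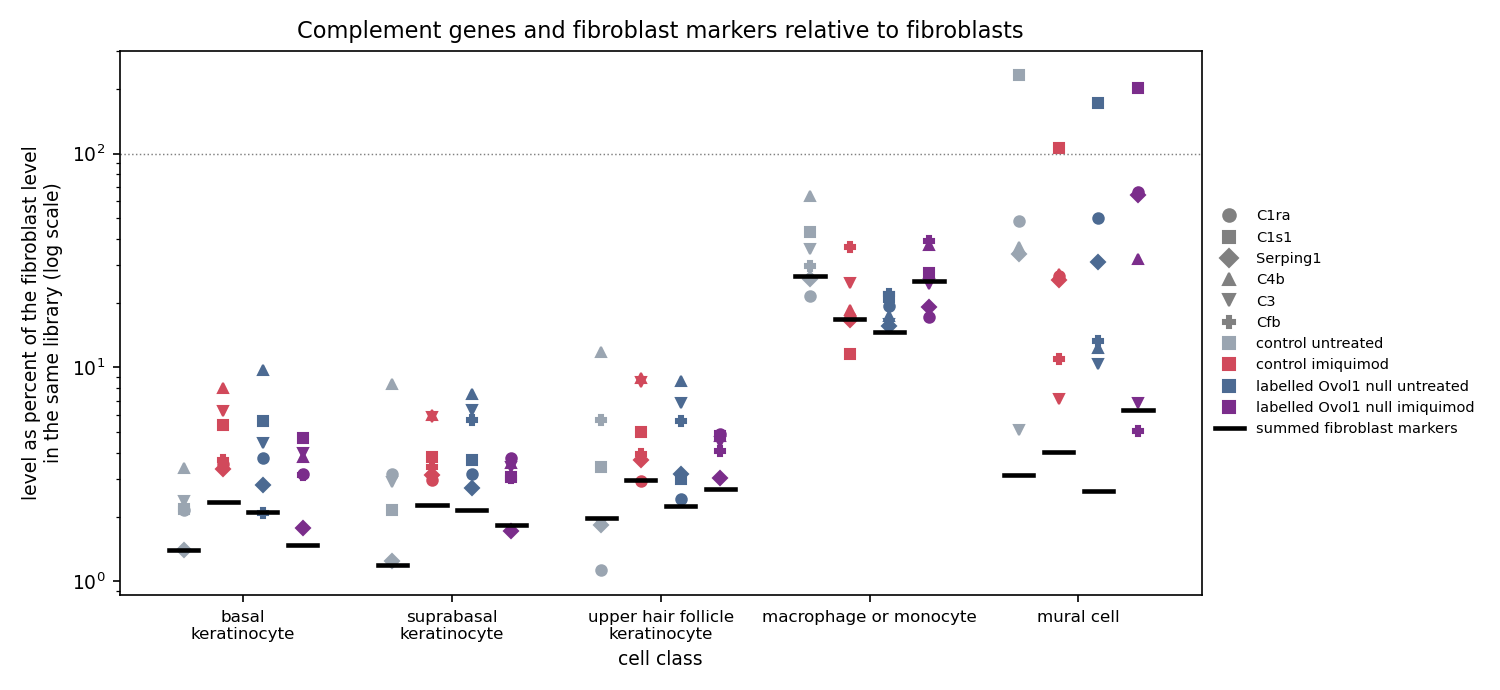
Level of C1ra, C1s1, Serping1, C4b, C3 and Cfb in 5 classes as percent of the fibroblast level in the same library (log axis; symbols by gene, colors by library), with summed fibroblast markers as black bars; values at 0 or from classes of under 50 cells are not drawn. Keratinocyte values reach from just below the bars to several times their height, with C4b in basal cells at up to 9.70% (from 15 basal UMIs), and C1s1 in mural cells lies at 106% to 232% beside bars of 2.66% to 6.31%.

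C1q was low in fibroblasts. C1qa was at 0.906, 4.13, 0.990 and 1.31 CPM from 20, 43, 12 and 33 UMIs. The control imiquimod ratios of 4.56 for C1qa (2.63 to 8.18), 5.94 for C1qb and 4.6 for C1qc were on the same side of 1 as those in macrophages or monocytes, and the calls were lost with thinning, at log2 ratios of 1.76, 2.92 and 1.55 against 2.17, 2.54 and 2.18. In labelled null fibroblasts the ratios were 1.32, 4.34 and 1.09, with only C1qb called. The part of free macrophage RNA in these values was not tested. In T or NK cells only Serping1 was measured, at 32.0, 132, 67.2 and 98.7 CPM. It was called higher with imiquimod in control skin, at 4.12 times (2.32 to 7.29), against 6.99% of all genes higher and 4.8% lower, and not called in labelled null skin, against 10.7% and 9.21%. The control ratio came from 26 UMIs in 70 imiquimod cells and 28 UMIs in 290 untreated cells. After thinning, a Serping1 UMI was found in 7.14% and 2.41% of them. The part of fibroblast RNA in the T or NK cell values was not tested. Sebocytes had C3 at 58.7, 44.1, 30.3 and 17.8 CPM, or 64.6%, 12.7%, 16.0% and 8.02% of the fibroblast level, with 77, 22, 84 and 95 cells.

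Labelled null and control skin were compared without treatment. Over all classes 10 of 32 measured pairs were called higher and 2 lower in labelled null skin, against 4.53% and 3.7% of all pairs. All 8 measured pairs in keratinocyte classes were called higher, against 3.79%, 3.84% and 3.24% of all genes in the basal, suprabasal and upper hair follicle classes, where 2.48%, 2.88% and 3.31% were lower. With thinning, the pairs called higher over all classes went from 10 to 3. Few thinned basal cells held a C3 UMI, 0.111% in control and 0.842% in labelled null skin. The share of fibroblast markers in basal cells was also higher in untreated labelled null skin, and its part was not tested. Serping1 in T or NK cells was called higher too, a call lost with doublets kept or with thinning, against 5.28% of all genes higher and 4.7% lower. In fibroblasts C3 alone was called, against 7.24% of all genes higher and 2.47% lower, and C1ra, C1s1, C4b and Cfb had ratios of 1.29, 1.32, 1.19 and 1.41. In macrophages or monocytes Serping1, at 518 CPM in control and 283 CPM in labelled null skin, was called lower, against 7.16% of all genes lower and 4.07% higher. With each cell weighted alike that call was lost. In mural cells none of 3 genes was called, against 3.73% of all genes higher and 4.88% lower. Sebocyte C3 was 1.94-fold lower in labelled null skin (1.12 to 3.45), against 4.05% of all genes lower and 3.46% higher. That call was lost with doublets kept, with each library clustered on its own, with thinning or with each cell weighted alike.

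Under imiquimod, 9 of 46 pairs were called higher and 15 lower in labelled null than in control skin, against 13.8% and 17.9% of all pairs. Cfb was higher in labelled null skin in fibroblasts, at a ratio of 1.94 (1.84 to 2.06), in macrophages or monocytes, at 2.07, and in all 3 keratinocyte classes, against 21.6%, 16.7% and 16.1% of all genes there. The keratinocyte calls were lost without the 1% most abundant genes in the totals and with thinning, which turned the direction in the upper hair follicle class, and the macrophage call was lost with thinning or with each cell weighted alike. C1s1 in macrophages or monocytes was also called higher, at 2.02 times (1.005 to 4.26), a call lost in 6 of the other settings, TMM scaling among them. C3 in fibroblasts was 1.56-fold lower (1.49 to 1.63), and this call was lost with TMM scaling (log2 ratio -0.39) and with thinning (-0.56). Fibroblast C1qa, C1qb and C1qc were also called lower, so 1 gene was higher and 4 were lower in this class, where 9.89% and 25.3% of all genes were. C4b, Serping1, C1ra and C1s1 in fibroblasts had ratios of 0.691, 0.738, 0.775 and 0.841, none called. In mural cells C1ra, C1s1 and Serping1 were called higher, at 1.91, 1.62 and 1.84 times, against 7.08% of all genes. With thinning the calls of C1ra and C1s1 were lost. In keratinocyte classes 11 of 22 pairs were called lower, against 22.7%, 22% and 15.2% of all genes, among them basal Serping1, which was 2.56-fold lower (2.3 to 2.85).

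The difference between both imiquimod effects was taken as the log2 ratio in labelled null skin minus that in control skin, with its counting interval. Of 38 pairs measured in all 4 libraries, 18 were below 0, 8 above 0 and 12 had intervals that spanned 0, against 22.1% below and 18.6% above among all pairs. In fibroblasts 7 of 9 genes were below 0 and Cfb alone was above, against 36.9% and 19.8% of all genes, with a median over the 9 genes of -0.73 against -0.22 over all genes. C1qc was at -2.07 (-3.37 to -0.77) and C1qa at -1.78 (-3.01 to -0.56), from few UMIs. C3 was at -1.70 (-1.80 to -1.59), the lowest of the 6 genes other than C1q, and it lay between -1.42 and -1.71 under the other settings. C1ra was at -0.73 (-0.85 to -0.62), C1s1 at -0.65 (-0.76 to -0.53), C4b at -0.78 (-1.02 to -0.55) and Serping1 at -0.30. With TMM scaling Serping1 was at -0.02 (-0.05 to 0.01), and with thinning the interval of C4b reached from -1.00 to 0.12. Cfb went the other way, at 0.47 (0.28 to 0.65), and at 1.07 with thinning. In macrophages or monocytes no gene was below 0 and 5 of 9 were above (13.2% of all genes), among them C1qa at 0.58 (0.23 to 0.93), C1qb at 0.44 (0.02 to 0.85) and Serping1 at 0.63 (0.29 to 0.97). In mural cells 2 of 3 were above 0 (11.5% of all genes), with Serping1 at 1.14 (0.80 to 1.49) and C1s1 at 0.73 (0.14 to 1.33). In basal keratinocytes 5 of 6 were below 0 (25.7% of all genes), with C3 at -3.26. With thinning, of the 8 pairs above 0 only Cfb in fibroblasts and Serping1 in mural cells kept an interval above 0, and with each cell weighted alike the intervals of C1qa and C1qb in macrophages or monocytes and of C1s1 in mural cells reached below 0.

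Other genes of the cascade were followed as lists in fibroblasts, imiquimod against untreated. Of the other classical and lectin pathway genes, 4 of 7 measured were called higher in control skin and 3 of 6 in labelled null skin, none lower, with medians of 1.43 and 0.52 on the log2 scale. Beside these and the list counts that follow, 17.6% of all genes were called higher and 17.1% lower in control fibroblasts (median 0.00), and 9.34% and 28.2% in labelled null fibroblasts (median -0.24). Masp1, a protease of the lectin pathway, had the largest ratio, from 0.272 to 1.83 CPM in control and from 0.165 to 2.15 CPM in labelled null skin. Of the regulators, which protect host cells or limit the cascade, 2 of 8 were called higher and 4 lower in control skin and 0 and 4 of 7 in labelled null skin, with medians of -0.64 and -1.00. Cd59b, which blocks the terminal pore, had the smallest ratio in both, at 9.88, 1.63, 7.67 and 1.03 CPM in the 4 libraries. Of the genes of the terminal pathway only C8g was measured, at 0.952, 0.288, 1.57 and 0.238 CPM. The reference list of interferon-induced genes, by comparison, had 14 of 15 called higher and 1 lower in control fibroblasts and 13 of 15 higher in labelled null fibroblasts, with medians of 3.10 and 3.47. The acute-phase list had 3 of 8 higher and 1 lower (median -0.23) in control and 7 of 9 higher (median 1.27) in labelled null fibroblasts.

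In macrophages or monocytes, complement receptors were called higher with imiquimod in 3 of 8 measured cases in control skin and 6 of 8 in labelled null skin, none lower, against 8.66% and 16.5% of all genes called higher, with medians of 0.52 and 1.18 against 0.00 and 0.12 over all genes. C3ar1, the receptor of the C3a fragment, had the largest ratio in control skin, from 3.81 to 69.2 CPM, and Itgam, a chain of complement receptor 3, had the largest in labelled null skin, from 17.1 to 227 CPM. Cfp, which encodes the stabiliser properdin of the alternative pathway, was at 66.0, 182, 98.7 and 178 CPM and was called higher with imiquimod in both genotypes, at 2.75 and 1.81 times.

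Likeness of pattern was described by Pearson's r of log2(CPM + 1) over 35 sums of a class in a library, which share libraries and depth. The C1q chains were correlated with each other at 0.974 to 0.984, C1ra with Serping1 at 0.939, C1s1 with Serping1 at 0.927, C1ra with C1s1 at 0.903, C4b with Cfb at 0.844 and C3 with Cfb at 0.707. Outside the 9 genes, Pirb was most like all 3 chains (0.967 to 0.982), but with 10 CPM added in place of 1 Clec4a1 led for C1qa and Clec4a3 for C1qb and C1qc. C1rb was most like C1ra (0.941) and Serping1 (0.969), C1s2 most like C1s1 (0.953), Serpina3n most like C4b (0.930), Ccl19 most like C3 (0.872) and Il18bp most like Cfb (0.898), where Ly6c1 led with 10 CPM added.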

How the data were processed

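UMI counts for each gene and barcode had been deposited as whole numbers. Per the submitters' processing notes they were made with Cell Ranger 2.1.0 on genome build mm10, and per the labels' protocols the libraries were joined by Cell Ranger's aggr. Whether aggr evened out depth, and the annotation release, are not given in the sources used here. Barcodes entered with at least 200 detected genes and no more than 10% of UMIs from mitochondrial genes, and doublets were removed with Scrublet (expected rate 0.05, score threshold 0.25, set after its automatic threshold failed). Cells were clustered with scanpy 1.11.5 and leidenalg 0.10.2 (2000 variable genes without the members, 30 components, 15 neighbours, resolution 1), which gave 37 clusters. Clusters were named when at least 3 markers of a type were at least 2-fold higher there and found in at least 10% of its cells. Leading genes of another type or low UMIs could bar a name. Markers were compared with the other clusters pooled, or with their median where the pooled comparison gave no name. Fibroblast clusters 0, 3, 7 and 13 were named by the pooled comparison and 1, 2, 5, 20, 22 and 26 by the median. This scheme was chosen after the data were seen. It gave 12 classes. For each class, counts were added up within a library and expressed as CPM. Intervals were exact Poisson, binomial (Clopper-Pearson) or conditional binomial (scipy 1.17.1) at 95%, and Wald intervals for differences of log2 ratios. They cover counting error only. TMM factors came from edgeR 4.0.16, used for scaling only. Total UMIs were 37331165, 29649307, 31517218 and 55103047.

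The members and lists were chosen with earlier results of these data known. All members were named. Of other lists, the genes with the largest and smallest ratio among those with at least 20 UMIs were eligible to be named, and of genes alike in pattern, the 3 with the highest correlation.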

Additional observations from a re-analysis of the deposited data

How the results depend on the processing

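No paired analysis was possible because each group had 1 library. Of 98 calls in the main analysis, 96 were kept with TMM scaling, 89 without the 1% most abundant genes in the totals, 94 with the 9 genes left in the clustering, 86 with each library clustered on its own and 87 with each cell weighted alike; 86 of the 94 that could be recomputed were kept with at least 500 genes and at most 5% mitochondrial UMIs, 83 of 91 with doublets kept, 87 of 93 with at least 3100 UMIs per cell and 74 of 76 at resolution 0.5. Thinning to 1000 UMIs kept 36 of 98, with fewer pairs at 20 UMIs to test.

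For imiquimod in control skin, pairs called higher went from 37 to 16 with thinning. In labelled null skin they went from 25 to 9 with thinning, and pairs called lower went from 0 to 1 with TMM scaling, the stricter filter, doublets kept, the 9 genes left in or cells weighted alike, and to 2 without the most abundant genes or with separate clustering. For labelled null against control, untreated, pairs called higher went from 10 to 3 with thinning, and pairs called lower from 2 to 1 with doublets kept, thinning or cells weighted alike and to 5 with separate clustering. Under imiquimod, pairs called higher went from 9 to 5 without the most abundant genes, with the stricter filter or with cells weighted alike and to 2 with thinning, and pairs called lower from 15 to 8 at resolution 0.5 and to 5 with thinning. For the difference of both imiquimod effects, pairs below 0 went from 18 to 7 with thinning, and pairs above 0 from 8 to 2 with thinning and to 5 with at least 3100 UMIs per cell or cells weighted alike. Thinning leaves lower counts, and the causes of these changes were not tested. Directions reversed for C4b in macrophages or monocytes, imiquimod against untreated in control skin (log2 ratio -0.228 with thinning, -0.149 with cells weighted alike), and for Cfb in upper hair follicle keratinocytes, labelled null against control under imiquimod (-0.264 with thinning). Of 27 genes most like a member in pattern, 20 were kept with 10 CPM added in place of 1.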
